A study of Mus musculus with 24 samples.

Results

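The genes described here encode the T-cell receptor complex and other proteins that define T cells: the CD3 chains Cd3d, Cd3e and Cd3g, the zeta chain Cd247, the co-receptors Cd4, Cd8a and Cd8b1, the co-stimulatory receptor Cd28, the kinase Lck and the surface glycoprotein Thy1. All non-control probes named for these 10 genes were taken, which gave 13 of the 55681 non-control probes on the array. Cd4, Cd8a and Cd247 had a pair of probes each. Hippocampal RNA came from C57BL/6 pups labelled male and killed on P9, with 5 one-colour Agilent arrays from 5 pups in each of 3 groups. Control (Con) pups were untreated and reared by the dam with minimal handling. From P5 the MS2 and MS5 pups received subcutaneous morphine at 2 or 5 mg/kg together with stress, which was daily isolation from the dam and repeated apnea in nitrogen followed by oxygen. Morphine and stress therefore cannot be told apart in a contrast with Con. Both hippocampi of a pup were pooled in 1 tube, and no cells were sorted, so RNA from blood, vessels and neighbouring tissue was included and fewer cells of a type cannot be told apart from less RNA per cell.

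On a T cell, the alpha and beta receptor chains recognise a peptide held by an MHC molecule but signal through the CD3 and zeta chains, whose tails carry paired tyrosines known as ITAMs. CD4 binds MHC class II, CD8 binds MHC class I, and both bring Lck to the complex, where it phosphorylates the ITAMs. Surface assembly of the receptor needs all of the CD3 chains. The healthy brain holds few T cells, whereas Thy1 is one of the most abundant glycoproteins of neurons as well as of mouse T cells. The question asked of these probes was which of them measured RNA above background in hippocampus and whether any differed with treatment.

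The 3 CD3 genes lie together on mouse chromosome 9, and their probes spanned 29020 bases, chr9:44777868-44806887 (mm9). The Cd3d probe (A_51_P285206, chr9:44794171-44794402, plus strand) covers 232 bases of genome with its 60 bases, so it crosses an exon junction, and the upstream Cd247 probe (A_52_P173555, chr1:167786567-167787585, plus strand) does likewise over 1019 bases. Both read through an ITAM, whose codons a translated search found and which are in capitals. These probes are shown because they are in the part of the RNA that encodes signalling.
Cd3d: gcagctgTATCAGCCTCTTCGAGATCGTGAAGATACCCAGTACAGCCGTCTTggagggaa
Cd247: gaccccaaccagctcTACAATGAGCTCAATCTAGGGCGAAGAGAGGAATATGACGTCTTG

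The probes of Cd3e (chr9:44806828-44806887, minus strand), Lck (chr4:129225614-129225673, minus strand), Thy1 (chr9:43856591-43856650, plus strand), Cd28 (chr1:60830144-60830203, plus strand) and the downstream probe of Cd4 (A_55_P2013655, chr6:124814711-124814770, minus strand) instead hold the hexamer AATAAA, the usual polyadenylation signal. The 30 bases around the last AATAAA of each are shown, with that hexamer in capitals, because these 5 probes behaved alike in detection. The hexamer was searched on the probe strand only, and 10.1% of all non-control probes hold it.
Cd3e: taatgcaaaaggcAATAAAgtgtattggct
Lck: tgcctagcacacaccaggagctcAATAAAa
Thy1: aggaaagaaaactgcacAATAAAaccaagc
Cd28: tgcttagcctgcAATAAAtatttattcatt
Cd4, downstream probe: acagaaaaataaaggctataAATAAAatgc

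The upstream probe of Cd4 (A_52_P383089, chr6:124817706-124817765, minus strand) starts 1793 bases closer to the start of the same transcript and is shown because its signal differed from that of the downstream probe.
Cd4, upstream probe: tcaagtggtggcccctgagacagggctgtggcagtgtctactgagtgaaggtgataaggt

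The arrays had a median spot signal of 121 to 154 except on the array of MS2 replicate 5, where it was 58.2, and 72.5% to 79% of spots were well above background against 67.1% on that array. On the array of MS5 replicate 9, Xist, the RNA of the inactive X chromosome, was at a mean log2 value of 10.40 over its probes, and on the others it was at most 6.04, which goes against the label male of that replicate. The array of MS2 replicate 4 stood apart in the markers of hippocampal neurons, whose mean log2 value was 10.15 against 11.87 to 12.42 on the others. All 8 of these markers were well above background on all arrays. The arrays lay on a pair of slides, with 3, 3 and 2 arrays of Con, MS2 and MS5 on slide 1 and 2, 2 and 3 on slide 2.

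Detection differed widely among the members. A probe was counted as detected on an array when the scanner software called most of its spots well above background. Of the 13 probes, 7 were detected on all 15 arrays: those of Cd3e, Lck, Thy1 and Cd28, both of Cd4, and the downstream probe of Cd247 (A_55_P2212968, chr1:167800324-167800383). Those 7 probes represent 6 of the 10 genes. Of the other probes, 2 were detected on no array and the rest on some. Of all non-control probes on the array, 65.2% were detected on all 15 arrays and 15.9% on none.

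The CD3 chains were split. The Cd3e probe, for the epsilon chain, was detected on all 15 arrays, with a spot signal of 284 to 1458 against a local background of 17 to 22. The Cd3g probe (A_55_P2072771, chr9:44777868-44777927), for the gamma chain, was detected on 0 of 15. The Cd3d probe, for the delta chain, was detected on 2, those of MS2 replicate 1 and MS5 replicate 9, at spot signals of 33.9 and 33.0. Thus of the 3 adjacent CD3 genes 1 had signal well above background throughout.

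The zeta chain gene gave a different answer with each probe. The upstream Cd247 probe, which reads through the ITAM shown above, was detected on 2 of 15 arrays, those of MS2 replicate 4 and MS5 replicate 8. The downstream Cd247 probe, which starts 13757 bases further along the genome, was detected on all 15. The design assigns the downstream probe to other transcript variants than the upstream one, and which variants the hippocampus holds was not measured by these probes.

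The co-receptors also differed. Of the Cd8a probes, A_52_P150547 (chr6:71323885-71323944) was detected on 0 of 15 arrays and A_52_P443334 (chr6:71328911-71328970), which was spotted 10 times, on 4, namely Con replicate 16 and MS5 replicates 9, 12 and 14. The Cd8b1 probe (A_55_P2154982, chr6:71287231-71287290) was detected on 12, which were 4 of 5 in each group. Both Cd4 probes were detected on all 15 arrays. The upstream one, also spotted 10 times, lay between 6.49 and 7.15 on the log2 scale, and the downstream one between 11.83 and 12.46. Signals of different probes depend on the probe as well as on the RNA, so this gap gives no ratio of transcripts.

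**Figure D1:**
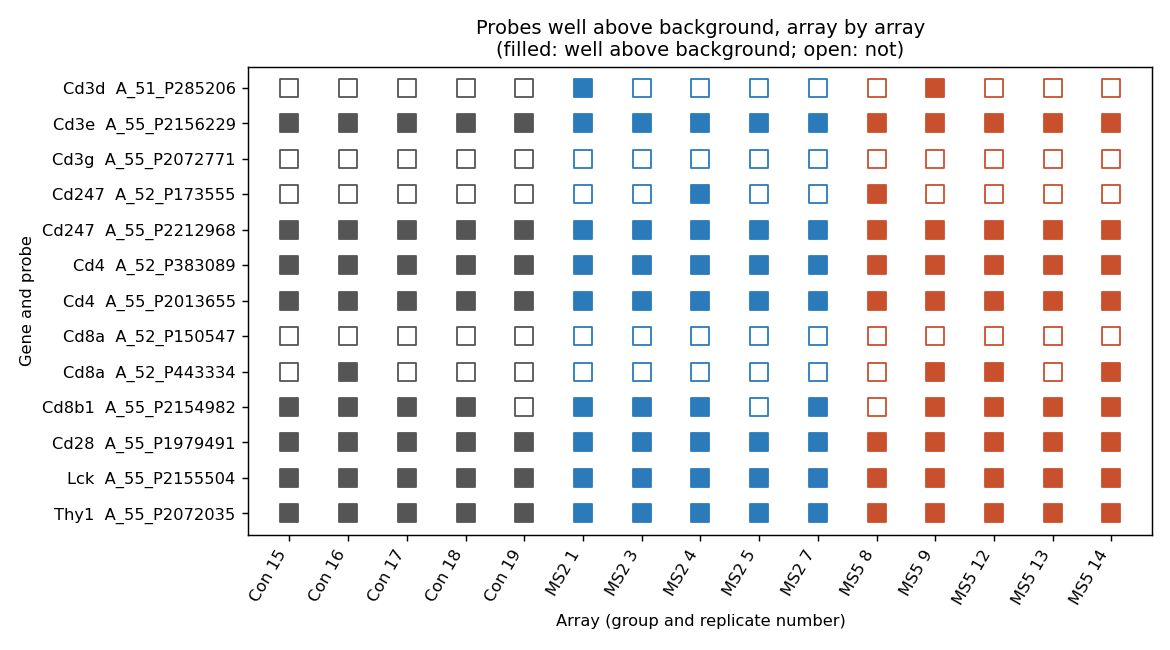
Detection of the 13 probes (rows) on the 15 arrays (columns, labelled by group and replicate number). A filled square is a probe called well above background and an open square one that was not. The probes of Cd3e, Cd28, Lck and Thy1, both Cd4 probes and the downstream Cd247 probe are filled on all 15 arrays, and those of Cd3g and the upstream Cd8a probe on 0.

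All 5 probes that hold AATAAA were detected on all 15 arrays, whereas 2 of the 8 without it were. Over all non-control probes the shares were 75.1% of 5602 probes with the hexamer and 64.0% of 50079 without it. These shares are a description of the probes and were not tested.

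Among other genes of T cells, 15 of the 29 found on the array by name were detected on all 15 arrays and 6 on none, with each gene taken at its brightest probe. The 6 detected on none were Ctla4, Il2, Il7r, Themis, Cd40lg and Gzmb, which include a defining cytokine receptor, a thymocyte signalling protein and effector molecules. Cd2, Cd5, Cd6, Cd7, Icos and Trat1 were among those detected on all 15. These averaged 6.57, 7.29, 7.74, 6.65, 6.85 and 6.39 in Con (log2), where the 6 detected on none averaged 5.87 to 5.98. Lef1, at 11.13 in Con, was the brightest of the list, and the cells that gave these signals were not identified. The receptor chains themselves were not found under their gene symbols. By the array's own descriptions, a search made after values had been seen, 34 probes belonged to them, of which 10 were detected on all 15 arrays, 11 on some and 13 on none. Markers of the other lymphocytes were likewise mixed, with 4 of 7 B cell and 3 of 7 NK cell markers detected on all 15 arrays. Microglial markers were detected at 10 of 10, and those of mature neurons at 11 of the 11 found on the array.

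None of the 13 probes differed between groups at the study's threshold, a fold change over 1.5 and a p under 0.05 without adjustment, in limma fitted across all probes. That count was 0 of 13 for MS2 versus Con, where 0.0233% of all probes passed, 0 of 13 for MS5 versus Con, where 0.228% passed, and 0 of 13 for MS5 versus MS2, where 0.129% passed. With p alone and no limit on fold, the counts were 0, 1 and 1 of the 13, beside 4.17%, 3.90% and 3.97% of all probes. After Benjamini-Hochberg adjustment 0 passed in each contrast, as did 0% of all probes, and the lowest adjusted p of a T-cell gene probe in limma was 0.970. For all 7 probes detected throughout, the 95% interval of the difference lay inside 1.5-fold in either direction in all 3 contrasts. These intervals are those of the deposited values, whose offset of 50 shrinks differences at dim probes. With Agilent's processed signal, centred on each array's 75th percentile, the upstream Cd4 difference for MS5 versus Con was 0.22 in place of 0.11 (log2). Whether the intervals stay inside 1.5-fold with other processing was not tested. The median difference of these 7 (log2) was 0.05 for MS2 versus Con, 0.10 for MS5 versus Con and 0.06 for MS5 versus MS2, where the median of all probes was 0.00 in each. The 2 contrasts with Con share their control arrays.

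**Figure D2:**
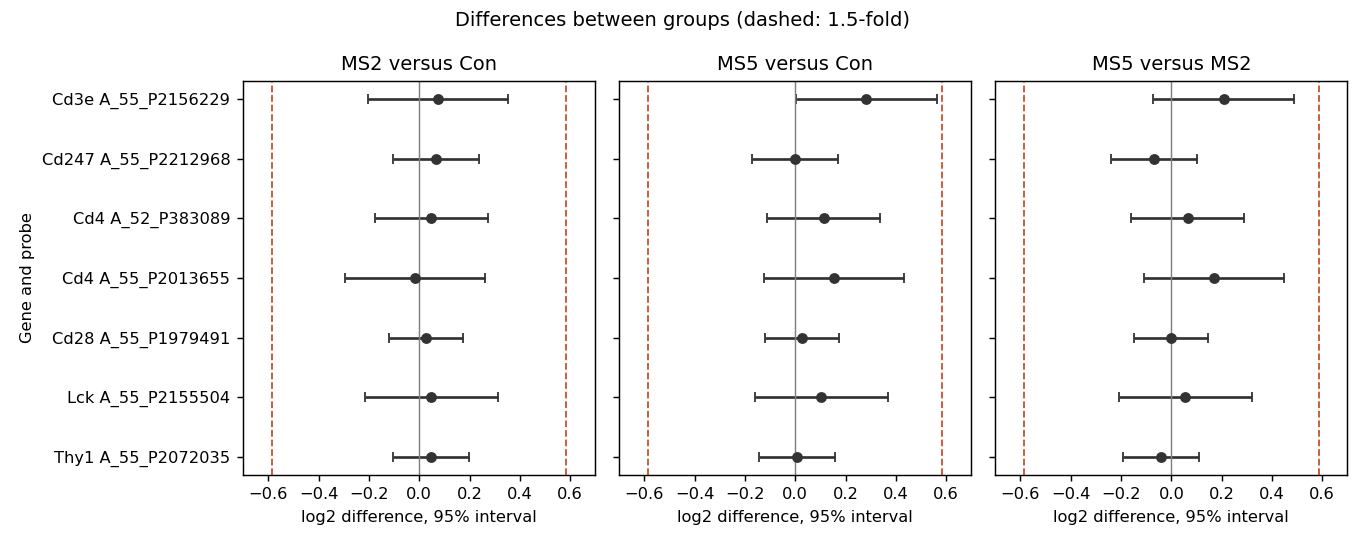
Differences between groups for the 7 probes detected on all 15 arrays, 1 panel a contrast. Points are log2 differences from limma, bars their 95% intervals, and dashed lines 1.5-fold. All 21 intervals, which are of the deposited log2 values only, lie inside the dashed lines. The interval of Cd3e for MS5 versus Con, from 0.00 to 0.56, is the one that does not cover 0.

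Cd3e had the largest difference of these probes. In Con its log2 values were 10.00, 10.09, 9.83, 9.70 and 9.84 for replicates 15 to 19. In MS2 they were 9.91, 10.01, 10.21, 9.77 and 9.93 for replicates 1, 3, 4, 5 and 7. In MS5 they were 9.99, 10.49, 10.26, 9.72 and 10.41 for replicates 8, 9, 12, 13 and 14. On 3 MS5 arrays, those of replicates 9, 12 and 14, Cd3e lay above all Con arrays, and on that of replicate 13 it lay near the lowest Con array, so the groups overlapped. Cd3e averaged 9.89 ± 0.15 in Con, 9.97 ± 0.16 in MS2 and 10.17 ± 0.32 in MS5 (log2, SD, n = 5).

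The Cd3e difference of 0.28 (log2, SE 0.13) for MS5 versus Con had an unadjusted p of 0.0480 in limma and an adjusted p of 1.00, and the two-sided exact permutation test gave p = 0.111. The 3 high MS5 arrays were all on slide 2. Within slide 1 the difference was 0.01 and within slide 2 it was 0.42, and with the slide as a block it was 0.24 and no longer under an unadjusted p of 0.05. Without MS5 replicate 9, whose Xist level went against its label, it was 0.20 (exact permutation p = 0.214), and without replicate 13 it was 0.39 (exact permutation p = 0.0397). On the arrays of MS5 replicates 9 and 14 markers of choroid plexus, the tissue beside the hippocampus that makes cerebrospinal fluid, were also low, with a mean log2 value of 10.23 and 8.94 against 11.83 to 13.14 on the others. The array of MS5 replicate 12, also high in Cd3e, was at 12.59, within the range of Con. That of replicate 13, low in Cd3e, was at 11.83. Over that list 8 of 8 markers were detected on all arrays and 7 of 8 were past the threshold, all lower in MS5 than in Con, each with an adjusted p of 1.00 in limma. The list's mean ranged from 12.10 to 13.14 in Con, from 12.18 to 12.87 in MS2 and from 8.94 to 12.59 in MS5. The slide term for Cd3e, with the groups in the fit, was 0.23 (limma unadjusted p = 0.0280, adjusted 0.212). The choroid plexus content was not tested as a source of the Cd3e values. Against MS2 the MS5 difference of Cd3e was 0.21 (SE 0.13, exact permutation p = 0.222), with -0.09 within slide 1 and 0.40 within slide 2.

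Lck, the kinase that begins T-cell receptor signalling, ranged from 10.53 to 11.06 in Con with a median of 10.71, from 10.60 to 11.06 in MS2 with a median of 10.73, and from 10.58 to 11.15 in MS5 with a median of 10.86 (log2). The 3 ranges covered nearly the same values. The differences from Con were 0.05 for MS2, with a 95% interval of -0.22 to 0.31, and 0.10 for MS5, with an interval of -0.16 to 0.37. For MS2 the difference was -0.10 within slide 1 and 0.27 within slide 2, and for MS5 it was 0.01 and 0.18. With 1 array left out the Lck difference ran from -0.02, without MS2 replicate 5, to 0.12, without Con replicate 18, for MS2. For MS5 it ran from 0.03, without MS5 replicate 9, to 0.18, without Con replicate 18.

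The downstream Cd4 probe measured 12.11, 12.43, 12.05, 11.87 and 12.08 in Con replicates 15 to 19. It measured 12.04, 11.99, 12.37, 12.23 and 11.83 in MS2 replicates 1, 3, 4, 5 and 7, and 12.31, 12.31, 12.46, 11.83 and 12.40 in MS5 replicates 8, 9, 12, 13 and 14 (log2). Of the MS5 arrays 4 were close together and that of replicate 13 was low, just below the lowest Con array. The difference from Con was 0.15 for MS5 (95% interval -0.12 to 0.43, exact permutation p = 0.317) and -0.02 for MS2 (interval -0.30 to 0.26). Without MS5 replicate 13 the MS5 difference was 0.26 (exact permutation p = 0.0556). The slide separated this probe more than the groups did: it averaged 12.00 ± 0.16 on the 8 arrays of slide 1 and 12.33 ± 0.13 on the 7 of slide 2 (SD), and the slide term of 0.30 had an adjusted p of 0.0421 in limma. With the slide as a block the MS5 difference was 0.09. The upstream Cd4 probe averaged 6.65 ± 0.11 in Con, 6.70 ± 0.16 in MS2 and 6.77 ± 0.24 in MS5 (log2, SD, n = 5), and its highest array was MS5 replicate 8 at 7.15. The difference of this probe from Con was 0.05 for MS2 and 0.11 for MS5, and with its 10 spots averaged in place of the first it was -0.02 and 0.08. Without MS5 replicate 8 the MS5 difference was 0.02.

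Cd28, the receptor for Cd80 and Cd86, averaged 7.18 ± 0.14 in Con, 7.21 ± 0.11 in MS2 and 7.21 ± 0.09 in MS5 (log2, SD, n = 5). The downstream Cd247 probe averaged 6.69 ± 0.11, 6.76 ± 0.14 and 6.69 ± 0.15 in the same order. For both genes the 95% interval of each difference stayed between -0.24 and 0.24, and the values of the 3 groups overlapped. The Cd8b1 probe, detected on 4 of 5 arrays in each group, averaged 6.21 ± 0.07, 6.22 ± 0.09 and 6.21 ± 0.09.

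Thy1 showed no difference past its spread. Its values ran from 16.25 to 16.66 in Con, 16.40 to 16.66 in MS2 and 16.42 to 16.60 in MS5 (log2), and no spot on the arrays was flagged as saturated. The difference from Con was 0.05 for MS2 (95% interval -0.10 to 0.20) and 0.01 for MS5 (interval -0.14 to 0.16), and between the doses it was -0.04 (interval -0.19 to 0.11). The lowest array was Con replicate 16.

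The members seldom well above background need a separate reading. Cd3d, Cd3g, Cd8a and the upstream Cd247 probe were not well above background on every array of any group, so no fold change is given for them. By the scanner software's other call, positive and significant above background, Cd3d passed on 14 of 15 arrays and Cd3g on 5. The Cd8a probes passed that call on 12 and 15 arrays and the upstream Cd247 probe on 9. One of these, the Cd8a probe A_52_P443334, had the lowest unadjusted p of all 13 for MS5 versus MS2, 0.0154 in limma (exact permutation p = 0.0159), with means of 6.14 ± 0.05 and 6.04 ± 0.03 (log2, SD, n = 5). When its 10 spots were averaged in place of the first, no T-cell gene probe had an unadjusted p under 0.05 in that contrast.

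**Figure D3:**
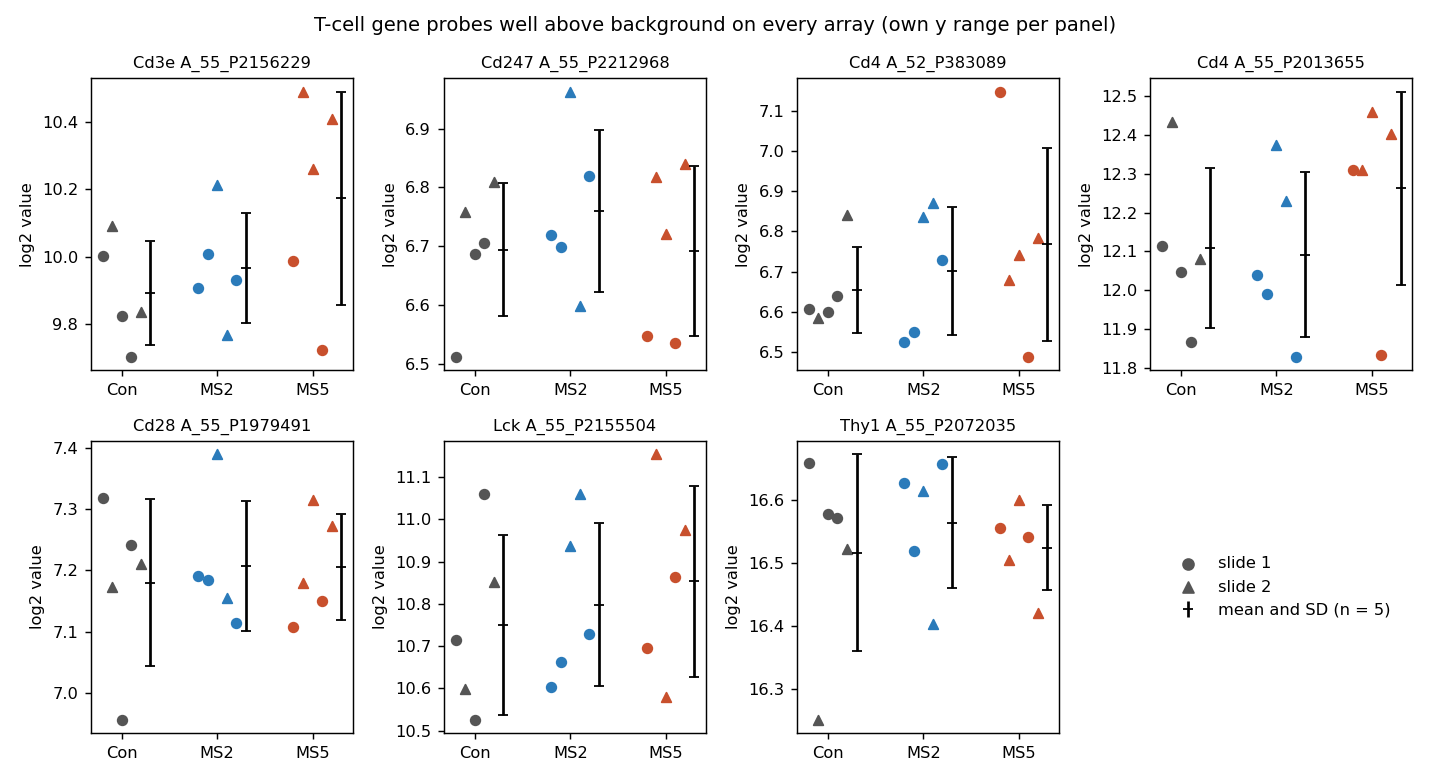
Log2 values of the 7 probes detected on all 15 arrays, by group, with circles for slide 1 and triangles for slide 2 and black bars for the mean and SD of 5 arrays. Each panel has its own axis range. In every panel the groups overlap, and in the panels of Cd3e and the downstream Cd4 probe slide 2 holds the highest value of each group.

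The members did not all vary together. Across the 15 arrays, Cd3e and the downstream Cd4 probe had the highest correlation of the 21 pairs of detected probes (Pearson r = 0.73, permutation p = 0.00229, adjusted over the pairs 0.0481, and Spearman rho = 0.70, permutation p = 0.00536, adjusted 0.113). The upstream Cd4 probe had r = 0.16 with Cd3e (rho = 0.17), and the 2 Cd4 probes had r = 0.44 with each other (rho = 0.45). Without the 2 arrays farthest from the median of Cd3e, MS5 replicates 9 and 14, r between Cd3e and the downstream Cd4 probe was 0.74. Within slide 1 it was 0.61 (n = 8, exact p = 0.111) and within slide 2 it was 0.64 (n = 7, exact p = 0.121), so the correlation did not pass the threshold within a slide. Cd3e and the downstream Cd4 probe both averaged higher on slide 2, Cd3e at 10.15 ± 0.27 against 9.89 ± 0.12 (SD). A source of their correlation was not tested. Cd3e and Lck had r = 0.16 (rho = -0.04) and Lck and the downstream Cd4 probe r = 0.02 (rho = -0.09), although the 3 proteins act together in T cells. Among the 21 pairs, 1 passed the adjusted threshold by Pearson r and 0 by Spearman rho.

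**Figure D4:**
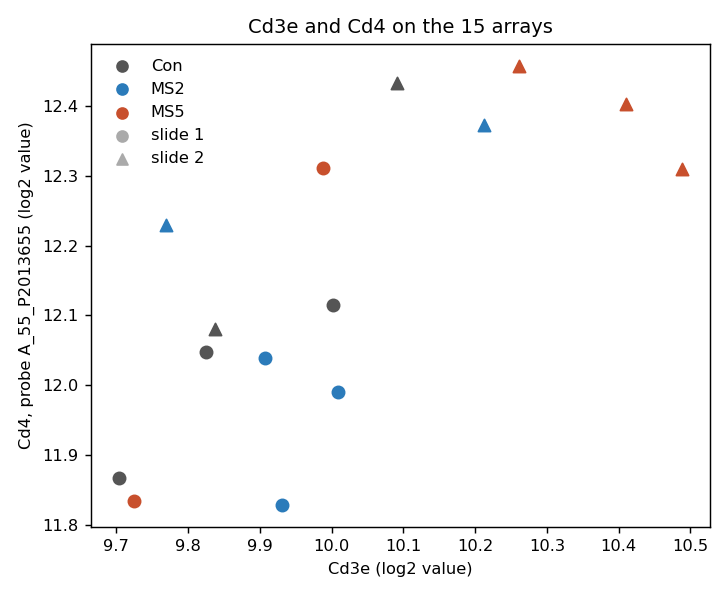
Cd3e (x axis) against the downstream Cd4 probe (y axis), both as log2 values, with 1 point for each of the 15 arrays, coloured by group and shaped by slide. The 2 rise together (r = 0.73), and the arrays of slide 2 lie towards the top of the plot.

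Thy1 was set against 4 lists of cell markers across the arrays. Against the mean of 11 markers of mature neurons r was 0.35 (permutation p = 0.198, adjusted 0.790) and rho 0.60 (permutation p = 0.0210, adjusted 0.0842). Leaving out the 2 arrays farthest from the median of the neuronal list, MS2 replicate 4 and MS5 replicate 12, gave r = 0.72 (permutation p = 0.00279, adjusted 0.0112) and rho = 0.80 (permutation p = 0.00176, adjusted 0.00704). Within slide 1 r was 0.65 (n = 8, exact p = 0.0809), and within slide 2 it was -0.07 (n = 7, exact p = 0.901). The relation with all arrays thus did not pass the threshold and did not hold within slide 2. For oligodendrocytes, microglia and choroid plexus r was 0.16, 0.05 and 0.15, with rho of 0.16, 0.00 and -0.04, and their lowest permutation p was 0.556 before adjustment.

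**Figure D5:**
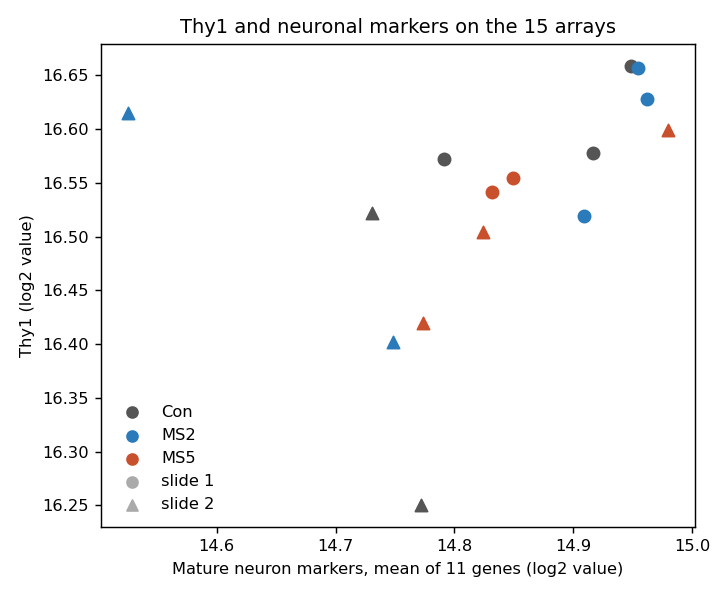
Thy1 (y axis) against the mean of 11 markers of mature neurons (x axis), both as log2 values, with 1 point for each of the 15 arrays. MS2 replicate 4, at 14.53 on the x axis, lies far to the left of the other points, and the circles of slide 1 rise from left to right more plainly than the triangles of slide 2.

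For each detected member, the 3 gene names most like it over the 15 arrays were taken from the 36281 probes detected throughout. They included 0 of the other T-cell genes listed here. With so few names kept, that count cannot show whether the members vary with T-cell genes. For Cd3e the highest was Arl9 (r = 0.95), followed by a non-coding transcript that is named in the array design by its position only and by ENSMUST00000114185 (r = 0.94 and 0.93). For the downstream Cd4 probe they were P4ha3, Krtap5-5 and Ksr2 (r = 0.95, 0.94 and 0.94). For Lck they were Med8, Gm13308 and Slc9a7 (r = 0.89, 0.89 and 0.88), for Cd28 Naa35, a transcript named by position and Dennd4b (r = 0.90, 0.89 and 0.88), for Cd247 Olfr577, Slc30a10 and Ccdc57 (r = 0.81, 0.81 and 0.80), and for Thy1 Pdzd8, a transcript named by position and Bbs10 (r = 0.88, 0.87 and 0.87). These are the highest of many correlations, the arrays shared 2 slides, and no p is given for them.

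Of 24 kinases, phosphatases and adaptors that act after the receptor, among them Zap70, Lat and Fyn, 21 were detected on all 15 arrays. In each of the 3 contrasts 0 of the 24 passed the threshold, beside 0.0233%, 0.228% and 0.129% of all probes. The lowest p of the 24 in limma was that of Bcl10, which links the receptor to NF-kappa B. It was at -0.16 (log2, SE 0.05) for MS2 versus Con (exact permutation p = 0.0159, limma adjusted p = 0.970). The lowest for MS5 versus Con was Lat, the adaptor phosphorylated by Zap70, at 0.10 (exact permutation p = 0.175), and for MS5 versus MS2 it was again Bcl10 at 0.10 (exact permutation p = 0.0714). The median difference of the 24 was 0.01, 0.00 and 0.02 in the 3 contrasts. With p alone, 1, 0 and 0 of the genes were under 0.05 in limma, beside 4.17%, 3.90% and 3.97% of all probes.

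Of the 11 genes that present antigen to CD4 and CD8 or bind CD28, 9 were detected on all 15 arrays. In each of the 3 contrasts 0 passed the threshold, beside 0.0233%, 0.228% and 0.129% of all probes. Cd74, the invariant chain that guides MHC class II molecules, had the lowest p in limma for MS5 versus Con. It averaged 0.48 (log2) higher in MS5, with a 95% interval of 0.18 to 0.78 (exact permutation p = 0.0238, limma adjusted p = 1.00). It was also the lowest for MS2 versus Con at 0.22 (exact permutation p = 0.0397). Tap1, a peptide transporter of the class I route, was the lowest for MS5 versus MS2 at -0.16 (exact permutation p = 0.0873). Among the 29 other T-cell genes 0 passed, and the lowest p in the 3 contrasts were those of Cd27 at -0.09, Tcf7 at -0.16 and Ccr7 at 0.08, with exact permutation p of 0.00794, 0.0556 and 0.254. The first of these is the smallest p the exact test can give, and its limma adjusted p was not under 0.05. Cd27 was dim, at 6.34 in Con and 6.25 in MS2 (log2), and both Cd27 and Ccr7 were detected on 14 of 15 arrays. With p alone, 0, 1 and 1 of the antigen presentation and CD28 ligand genes and 1, 0 and 0 of the other T-cell genes were under 0.05 in limma. The shares of all probes were 4.17%, 3.90% and 3.97%.

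The study listed a set on phosphorylation of CD3 and zeta among those upregulated in MS5, and described T helper and T cytotoxic pathways as stimulated. These gene sets of the study share most of the T-cell genes described here. They were reported from these same arrays, so they are no independent evidence of a direction. In the set on phosphorylation of CD3 and zeta, 6 of 9 genes were detected on all 15 arrays. In the T helper set 10 of 12 genes were detected and in the T cytotoxic set 9 of 12. Cd3d and Cd3g, in all 3 sets, were not well above background on most arrays, nor was Cd8a in the T cytotoxic set. In the 3 sets 0 genes passed the threshold in each contrast, beside 0.0233%, 0.228% and 0.129% of all probes. These are counts of single genes, whereas the study tested each set as a whole, so the measures differ. The median difference of the detected genes for MS5 versus Con was 0.07, 0.04 and 0.03 (log2) in that order, beside 0.00 over all probes, and Cd3e had the lowest p in all 3. For MS5 versus MS2 the lowest p of a detected gene was that of Ptprc, the CD45 phosphatase, at 0.11 (exact permutation p = 0.175) in the first set and of Itgb2, an integrin chain of leukocytes and microglia, at 0.14 (exact permutation p = 0.0159) in the T helper and T cytotoxic sets, and 0 of these had a limma adjusted p under 0.05.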

How the data were processed

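Hippocampal mRNA was measured on 15 arrays, 5 each for Con, MS2 and MS5. Per spot, the authors deposited an intensity from Agilent's extraction software, on mm9 annotation, and a table of log2 values, which they had background adjusted with normexp and quantile normalized. Rebuilding that table from the intensities, with an offset of 50, quantile normalization over all 62976 spots and the first spot of each probe, gave the deposited log2 values with a largest difference of 5e-09.

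The log2 values were compared between groups with limma 3.58.1 in R 4.3.3, in 1 fit of 3 groups over 55681 non-control probes, with Benjamini-Hochberg adjustment over all of them. For single probes a two-sided exact permutation test over 252 assignments was added, whose smallest p is 0.00794. Correlations across arrays used 100000 permutations, or all permutations within a slide. Detection used the scanner software's call of a spot well above background, and precision was limited by the number of arrays. The miRNA arrays were not used here. The steps were tested on simulated data.

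Named genes were all T-cell gene probes and, from other lists, every gene past the threshold and the one with the lowest p in each contrast, each list gene being represented by its brightest probe. Lists were of T cells, receptor signalling, antigen presentation, the study's T-cell sets, B cells, NK cells, microglia, red blood cells, mature and hippocampal neurons, oligodendrocytes and choroid plexus. The genes and lists were chosen with earlier results of these data known. Alternatives were averaged spots, an offset of 0, the processed signal centred on each array's 75th percentile, array weights, detected probes only, the slide as a block, each slide alone, only the 2 groups compared, the mean of a gene's probes, and each array left out.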

Additional observations from a re-analysis of the deposited data

Results flagged for a closer look

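A sample far from the others of its group was found in 4 of the 39 sets of values tested, 13 probes in 3 groups, by a test that flags about 1 set in 20 by chance. The downstream Cd4 probe was at 11.83 (log2) on MS5 replicate 13, against 12.31 to 12.46 on the other MS5 arrays. The upstream Cd4 probe was at 6.84 on Con replicate 19, against 6.58 to 6.64 on the other Con arrays. Cd28 was at 7.39 on MS2 replicate 4, against 7.11 to 7.19 on the other MS2 arrays. Cd3g, which was not well above background, was at 6.06 on Con replicate 17, against 5.88 to 5.89 on the other Con arrays. Xist was at 10.40 on MS5 replicate 9, against at most 6.00 on the other MS5 arrays, and at 6.04 on MS2 replicate 5, against 5.96 to 5.98 on the other MS2 arrays.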

How the results depend on the processing

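Of the T-cell gene probes, 0 were called in each contrast under every alternative run, with 0 to 0 also over the fits that left out 1 array. With p alone, MS5 versus Con had 0 to 1 probes at an unadjusted p under 0.05 over the other alternatives and 0 to 2 with 1 array left out, and MS5 versus MS2 had 0 to 3 and 1 to 3. The Cd3e difference for MS5 versus Con was between 0.20 and 0.39 (log2) with 1 array left out, the lowest without MS5 replicate 9. The number of probes detected on all arrays was 7 with any 1 array left out, an alternative chosen after seeing the data, and counting probes detected on at least 1 in 2 arrays of a group gave at most 9. The correlation of Thy1 with neuronal markers passed the threshold only without the 2 arrays farthest from the median (r = 0.72), and the cause was not tested. Within a slide, r between Cd3e and the downstream Cd4 probe was 0.61 and 0.64, below the threshold with 8 and 7 arrays. No pairing by animal was possible because the 3 groups of mRNA arrays share no animal number. The paper describes control pups as littermates of treated pups, but the labels give no litter, so litter could not be used as a block. Probes not well above background give no fold change at this signal.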

Other observations

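Choroid plexus genes past the threshold for MS5 versus Con were Aqp1, Kl, Folr1, Clic6, Kcne2, Slc4a5 and Otx2, and their log2 values averaged 11.84, 10.52, 13.86, 12.98, 12.31, 9.75 and 11.99 in Con and 10.36, 9.41, 11.86, 11.66, 10.59, 8.50 and 10.73 in MS5. Their SDs (n = 5) were 0.36 to 0.57 in Con and 0.88 to 2.03 in MS5. Over all probes 0.228% passed in this contrast, the limma adjusted p was 1.00 for each of these genes, and the exact permutation p ran from 0.0159 for Kl and 0.0317 for Folr1, the only ones under 0.05, to 0.0952. All of these except Kl also passed for MS5 versus MS2, where 0.129% of all probes did. For MS2 versus Con 0 of the list passed, beside 0.0233% of all probes. In the lists of B cells, NK cells, microglia, red blood cells, mature neurons, hippocampal neurons and oligodendrocytes 0 genes passed in each contrast. With p alone in limma, 1 gene of these lists was under 0.05, in the contrast of MS5 with Con, where 3.90% of all probes were. Red blood cell genes had a median difference of -0.38 for MS5 versus Con (log2), and Slc4a1, the band 3 anion exchanger of red cells, had the lowest p among them, at -0.40 (SE 0.17, exact permutation p = 0.111).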
